A study of Mus musculus with 27 samples.

Results

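Lamin B1 knockdown (KD) NMuMG cells treated with TGF-β for 24 h were compared with KD cells that received no TGF-β. The comparison rests on 4 RNA-seq libraries, 2 untreated and 2 treated, chosen by their labels out of 12 libraries in the table of shRNA cells and 27 samples in the series. NMuMG cells are a mouse mammary epithelial line without a tumour origin, grown in medium with serum and insulin, and all 12 libraries come from cells that carry an shRNA. The KD groups (shLB) carry an shRNA against lamin B1, and the control groups (shCT) a control shRNA, each untreated (0 h) or in TGF-β for 8 or 24 h with 2 libraries per group. The labels give the TGF-β concentration as a range from 1 to 5 ng/ml, so the dose of a single library is not known. The study describes the 2 libraries of a group as biological replicates. A knockdown lowers a transcript and does not delete its gene, and nothing in the labels says how many different shRNA sequences were used, so effects of a single shRNA on other transcripts and effects of lamin B1 cannot be told apart. In bulk RNA, a change in the share of cells in a state and a change in RNA per cell cannot be told apart either.

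TGF-β is a secreted growth factor that binds a pair of receptor kinases, which phosphorylate the transcription factors Smad2 and Smad3. With Smad4 these enter the nucleus, turn on matrix, adhesion and feedback genes, repress the Id genes and, in epithelial cells, slow the cell cycle. In NMuMG cells the treatment starts an epithelial to mesenchymal transition (EMT), in which cell junctions are lost and stress fibres and matrix are gained. Lamin B1 is a filament protein of the nuclear lamina, and the question here is what the TGF-β response looks like in cells with less of it.

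Lmnb1, the targeted gene, was measured in every library first. The 2 untreated KD libraries held 9.01 and 9.27 FPKM. After 8 h in TGF-β the KD values were 7.79 and 8.14 FPKM, and after 24 h 4.37 and 7.52 FPKM. In control cells they were 29.2 and 36.5 FPKM before treatment, 32.8 and 32.1 after 8 h and 18.4 and 17.9 after 24 h. FPKM is a count of fragments divided by transcript length and by the size of the library. Every KD library lay below every control library of its time point. Within KD cells Lmnb1 fell by 0.58 ± 0.18 (SE) from 0 to 24 h on the log2 scale, with a limma adjusted p of 0.017, and the 2 replicates at 24 h stood apart. Without replicate 1 of the 24 h KD group the change was -0.25 and was no longer called, with a limma adjusted p of 0.0615. The call was also lost without either untreated KD library, at changes of -0.60 and -0.57 (limma adjusted p of 0.0555 and 0.0683), and in a fit of only the groups compared, at -0.58 (0.105). The difference between the KD and the control change was 0.23 with a 95% interval from -0.35 to 0.81, which includes 0. Without replicate 1 of the 24 h KD group that difference was 0.56 and was called, with a limma adjusted p of 0.0227.

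The libraries were checked before use. The share of summed FPKM held by small RNA genes was 7.27% and 9.76% in untreated KD cells and 26.7% and 43% in KD cells at 24 h, and in control cells 15.1% and 12% untreated and 40.3% and 32.5% at 24 h. Its part in the FPKM of the other genes was not tested, and a scaling without these genes is among the alternatives. Over the 11336 tested genes that are no small RNA genes, replicates correlated with a Pearson r between 0.992 and 0.999, lowest in the KD group at 24 h. In that group 40 of these genes differed between replicates by more than 1 on the log2 scale, against 5 to 14 in the other 5 groups. Over all 11450 tested genes r was between 0.96 and 0.983, and 112 genes differed by more than 1 in the KD group at 24 h, against 50 to 71 in the others. The files give no read counts, so absolute depth is unknown. Relative depth was estimated from the most common ratio between a gene's low value in the first control library and in each library. It lay between 79% and 113% of the first control library over the 12 libraries. The epithelial label was set against marker genes. Krt8 and Krt18, keratins of simple epithelium, stood at 2569 and 2614 and at 2153 and 2224 FPKM in untreated KD cells, and Cdh1 (E-cadherin) at 127 and 121 FPKM. Krt19, another luminal keratin, was at 1192 and 1109 FPKM. The other luminal markers were near 0 in untreated cells. Epcam stood at 0.387 and 0.326 FPKM and Cldn4 at 0 and 0.0099 FPKM, and Cldn3 and Esrp1 stayed under 0.324 FPKM in all 12 libraries. The 8 fibroblast, 8 endothelial and 8 adipocyte markers included no tested gene. Of 8 immune markers 1 was tested, and it was not called. The summed level of the fibroblast markers was between 0.103 and 0.123 FPKM untreated and between 0.427 and 0.489 FPKM after 24 h. Myoepithelial markers summed to between 8.21 and 8.61 FPKM in these 4 KD libraries. Of 8 such markers 3 were tested, with Krt14 and Acta2 called higher and Mylk lower at 24 h, at changes between -1.05 and 1.74. The call of Krt14 (0.37) was lost without replicate 1 of the 24 h KD group (0.18) and without either untreated KD library (0.41 and 0.32).

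At 24 h the KD cells had a different level for most genes that could be tested. FPKM values were taken as log2 after adding 1, so that 1 on this scale is close to a 2-fold change for well expressed genes and less than the true change for low ones. Of 11450 tested genes 8236 (71.9%) were called by limma at an adjusted p under 0.05, 3277 (28.6%) higher and 4959 (43.3%) lower at 24 h. With a change of at least 1 added to the call, 733 genes (6.40%) were higher and 1035 (9.04%) lower. The median size of a called change was 0.52. These shares are the background for every gene list that follows. The median response over all tested genes was -0.10, and scalings that remove this shift changed the balance of calls, to 4126 higher and 4103 lower with quantile normalization, 4112 and 3994 with median centring, and 3966 and 4091 with rescaling on genes other than small RNA genes. Of the 8236 calls, 6181 were called in the same direction under all 12 alternatives other than a minimum change, 2583 of them higher and 3598 lower.

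**Figure D1:**
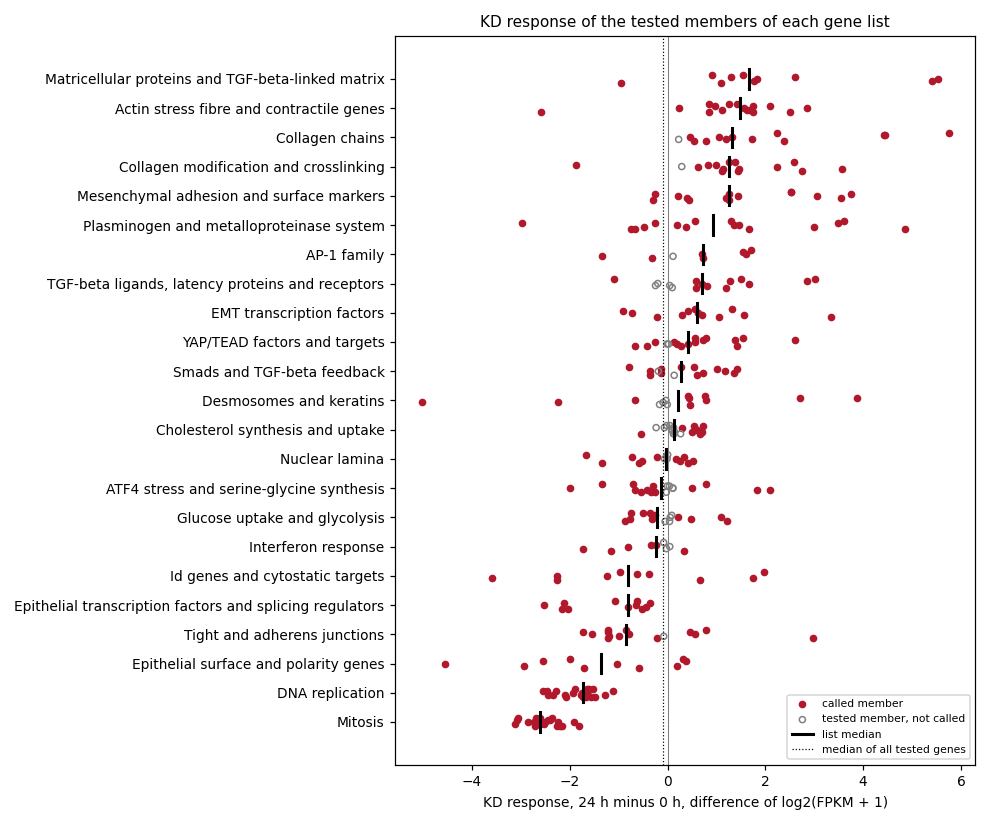
KD response (24 h minus 0 h, difference of log2(FPKM + 1), horizontal axis) of each tested member of 23 gene lists, with filled points for called genes, open points for genes not called, a bar at the list median and a dotted line at the median of all tested genes. All members of the DNA replication and mitosis lists lie left of -1, and the medians of the matrix, collagen and actin lists lie right of 1.

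The genes that rose most included several that encode secreted or matrix proteins. The rule took the largest changes among called genes with at least 5 FPKM and no overlap between the groups. Il11, a cytokine of the interleukin-6 family known as a TGF-β target, went from 0.169 and 0.427 FPKM to 137 and 121 FPKM, a log2 change of 6.65 ± 0.093 (SE). Ctsw, a cathepsin, went from 0.377 and 0.387 FPKM to 89.95 and 121 FPKM (6.25 ± 0.14). Ass1, argininosuccinate synthase of arginine synthesis, went from 1.75 and 1.32 FPKM to 132 and 158 FPKM (5.85 ± 0.097). That the treated libraries of these 3 genes lay above the untreated ones follows from the rule. Col5a3, a fibrillar collagen chain, was at 0.00313 and 0.00543 FPKM untreated and at 54.5 and 51.8 FPKM at 24 h. Tnc, the matrix glycoprotein tenascin C, rose from 2.03 and 2.29 FPKM to 88.4 and 235 FPKM, with replicates at 24 h that stood far apart. Thbs1 (thrombospondin 1), which can release TGF-β from its latent form, rose from 10.6 and 11.3 FPKM to 482 and 533 FPKM. Its rise was 46.2-fold in FPKM. Gm1045, a gene model, rose by 5.46 ± 0.19 and Lce1f, a late cornified envelope gene with close copies in its cluster, by 4.89 ± 0.095. All of these rises were called in the same direction under those 12 alternatives.

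The genes that fell most, by the same rule, included keratins and metabolic enzymes. Alb (albumin), the main plasma protein of liver, went from 218 and 226 FPKM to 0.337 and 0.255 FPKM, a log2 change of -7.42 ± 0.20 (SE). Gsta4, a glutathione transferase, fell from 300.1 and 285 FPKM to 4.02 and 6.72 FPKM, and Akr1c19, an aldo-keto reductase, from 66.5 and 65.5 FPKM to 0.702 and 1.21 FPKM. Krt19, a keratin of simple epithelium, fell from 1192 and 1109 FPKM to 22.1 and 52.6 FPKM, and Krt6a, a keratin of stratified and injured epithelium, from 33.7 and 33.7 FPKM to 0.346 and 0.141 FPKM. That no treated library of these genes reached an untreated one follows from the rule. Vsig1, an adhesion protein of the immunoglobulin family, fell by 4.60 ± 0.062 with close replicates. The prolactin family genes Prl2c2, Prl2c3 and Prl2c5 changed by -5.44, -5.50 and -4.58, all called, and they share near-identical sequence, so their reads may be split among them and their separate values are uncertain. Their replicates at 24 h were far apart, at 54.2 and 5.13, 66.6 and 5.64 and 5.16 and 0.607 FPKM. Sprr2a1, a cornified envelope gene from a cluster of close copies, fell from 62.6 and 55.7 FPKM to 0.885 and 0.664 FPKM and is uncertain for the same reason.

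**Figure D2:**
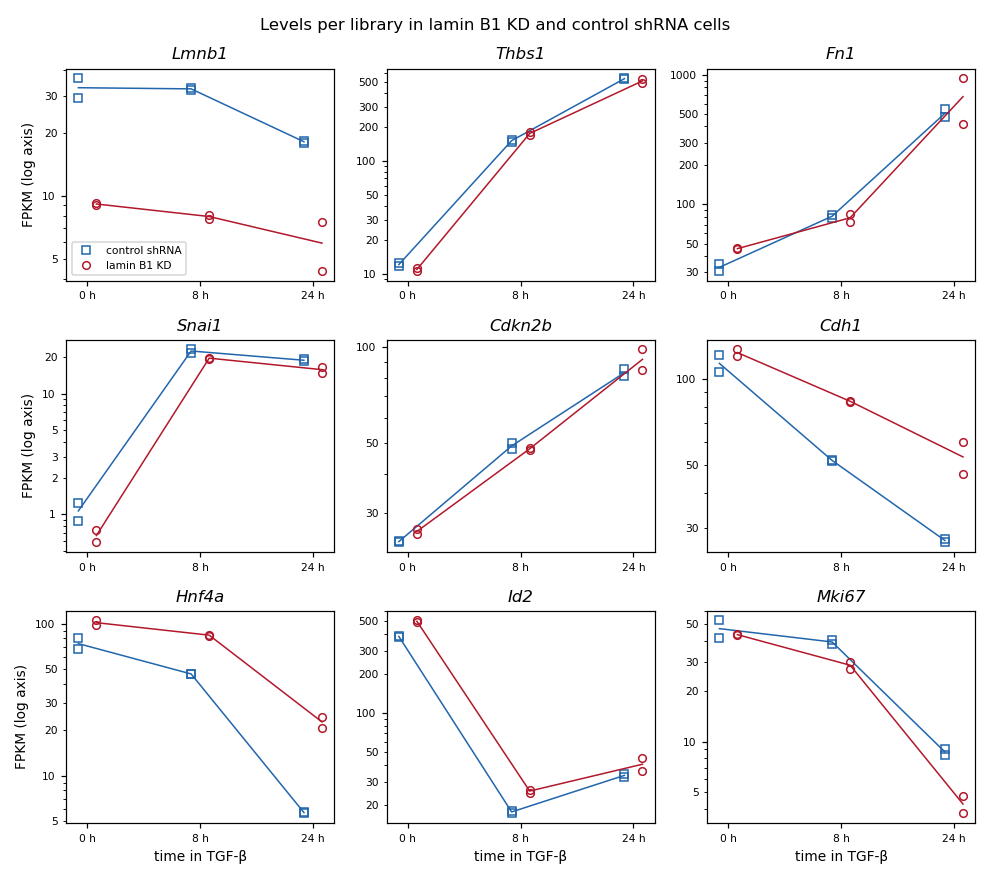
FPKM (log axis) of 9 genes at 0, 8 and 24 h in TGF-β, with 1 symbol per library, squares for control shRNA cells, circles for KD cells and lines through the means of 2 libraries. Lmnb1 is lower in every KD library than in any control library of its time point, Thbs1 is higher at each later time in every KD and control library, Snai1 is at least as high at 8 h as at 24 h in KD cells, and Cdh1 and Hnf4a stay higher in KD than in control cells at 24 h.

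TGF-β ligands and receptors were described as a list of 18 genes, of which 15 were tested. 10 of the 15 rose, 1 fell and 4 were not called, with a median change of 0.71, against -0.10 over all tested genes. The ligands Tgfb1, Tgfb2 and Tgfb3 all rose. Tgfb1 went from 20.9 and 21.2 FPKM to 41.1 and 59.4 FPKM, and Tgfb3 from 0.852 and 0.692 FPKM to 4.27 and 4.99 FPKM. Inhba, which encodes the subunit of activin A, was at 20.95 and 21.9 FPKM and then at 242 and 107 FPKM, an increase of 2.86 ± 0.29 whose size depended on the replicate. Among the latency proteins that hold TGF-β in the matrix, Ltbp2 rose from 0.0576 and 0.0274 FPKM to 6.88 and 8.08 FPKM and Ltbp1 by 1.28 ± 0.11. The type II receptor Tgfbr2 rose by 0.59 ± 0.045, and the type I receptor of the BMP branch, Acvr1, by 1.51 ± 0.044. Tgfbr1, the type I receptor of TGF-β itself, stood at 21.8 and 20.5 FPKM untreated and 22.3 and 14.9 FPKM at 24 h. It was not called (95% interval of the log2 change from -0.55 to 0.15). Without replicate 1 of the 24 h KD group its change was -0.48. The single fall was that of Bmp4, a ligand of the BMP branch, which fell by 1.09 ± 0.11.

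Of 15 tested Smad and feedback genes 8 rose and 5 fell, with a median of 0.28. The 4 with a rise of at least 1 are inhibitors of the pathway. Smad7, the inhibitory Smad that blocks the receptor, went from 7.52 and 7.11 FPKM to 22.3 and 18.4 FPKM, a 2.78-fold rise. Pmepa1, a membrane protein that holds back Smad2 and Smad3, went from 54.3 and 54.4 FPKM to 143 and 149 FPKM. The co-repressors Ski and Skil rose by 1.18 ± 0.055 and 1.02 ± 0.094. Smad3, a receptor-activated Smad, fell by 0.37 ± 0.050, and Nedd4l, a ubiquitin ligase of activated Smads, fell by 0.80 ± 0.098. The 3 members of the Id family above threshold all fell. Id1 went from 165 and 166 FPKM to 39.99 and 28.7 FPKM, Id2 from 509 and 495 FPKM to 45.1 and 36.3 FPKM and Id3 from 65.6 and 63.8 FPKM to 27.01 and 26.6 FPKM. Id proteins bind other helix-loop-helix factors and keep them from DNA, and their loss is a known mark of TGF-β in epithelium.

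The growth arrest arm moved in both directions. Cdkn2b (p15), the CDK inhibitor that TGF-β induces in epithelial cells, rose from 25.8 and 26.8 FPKM to 84.6 and 98.4 FPKM, a 3.48-fold rise. Gadd45b, a stress and growth arrest gene, rose from 17.97 and 16.9 FPKM to 69.2 and 72.9 FPKM. Cdkn1a (p21) fell from 176 and 172 FPKM to 125 and 100.3 FPKM, and Cdkn2c (p18) from 20.4 and 19.2 FPKM to 3.44 and 3.27 FPKM. Myc, a driver of growth that TGF-β represses in many epithelia, stood at 57.2 and 58.2 FPKM untreated and at 46.2 and 42.3 FPKM at 24 h, a fall of 1.31-fold.

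Of 12 tested EMT transcription factors 9 rose and 3 fell, with a median of 0.60. Snai1 (Snail), a repressor of E-cadherin, went from 0.587 and 0.749 FPKM to 16.7 and 14.9 FPKM, a 23.7-fold rise (limma adjusted p = 8.7e-09). Zeb1 and Zeb2, repressors of the same target, rose from 4.97 and 5.56 to 14.7 and 14.6 FPKM and from 1.98 and 1.79 to 5.599 and 4.39 FPKM. Snai2 (Slug) rose by 0.71 ± 0.088 and the Runt factor Runx1 by 1.56 ± 0.086. Groups did not overlap in any of these factors, where 71.9% of all tested genes were called. The share of all tested genes without overlap was not counted. Hmga2, a chromatin factor upstream of Snail, rose by 0.63 ± 0.11. Snai3 fell by 0.73 ± 0.075 and Twist2, a helix-loop-helix factor, fell by 0.92 ± 0.12. Twist1 stayed under 1 FPKM in all 12 libraries. Sox9 was called higher at 0.56 ± 0.19, a call that was lost without replicate 2 of the 24 h KD group (0.32), without either untreated KD library (0.55 and 0.58) and in a fit of only the groups compared.

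Mesenchymal adhesion and surface genes rose in 12 of 14 tested cases, 9 of them by at least 1, and the median was 1.25. Fn1 (fibronectin), the main glycoprotein of the early matrix, was at 45.02 and 46.2 FPKM untreated and at 415 and 942 FPKM at 24 h. Both treated libraries were above the untreated ones, but they stood far apart. Its receptor chain Itga5 (integrin α5) had close replicates and rose from 8.49 and 8.58 FPKM to 108 and 113 FPKM. Itgb3 (integrin β3) rose from 7.69 and 7.66 FPKM to 48.3 and 49.2 FPKM, and Ncam1, a neural cell adhesion molecule that appears in EMT, from 13.3 and 12.6 FPKM to 80.3 and 77.6 FPKM. Cdh2 (N-cadherin), which replaces E-cadherin in EMT, rose from 30.8 and 29.4 FPKM to 71.6 and 74.1 FPKM. Nt5e (CD73), an ectonucleotidase of mesenchymal cells, rose by 3.05 ± 0.066. Vim (vimentin), the intermediate filament of mesenchymal cells, was already at 1185 and 1187 FPKM in untreated cells and at 1365 and 1384 FPKM at 24 h. Its change of 0.21 ± 0.082 was called but was lost under quantile normalization, without a filter and without any single one of the 4 KD libraries compared (0.20 to 0.22). S100a4, a calcium-binding protein used as a fibroblast marker, was lower at 24 h, at 455 and 486 against 551 and 613 FPKM, and its call was lost under 2 of the 3 scalings, without replicate 1 of the 24 h KD group (-0.26) and without replicate 2 of the untreated one (-0.23).

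Matrix genes rose as a group. All but 1 of 10 tested matricellular genes rose (median 1.66), 12 of 13 tested collagen chains rose and the other was not called (median 1.31), and 13 of 15 genes of collagen modification rose (median 1.26). Over all tested genes the share called higher was 28.6%. Ctgf and Cyr61, secreted CCN proteins, rose from 148 and 157 to 860.3 and 1001 FPKM and from 75.5 and 85.02 to 222 and 252 FPKM. Sparc, a collagen-binding protein that was abundant before treatment, rose from 300.4 and 302 FPKM to 594 and 689.6 FPKM. Vcan (versican), a large proteoglycan, rose by 1.29 ± 0.098. Spp1 (osteopontin) was the member that fell, from 3918 and 3991 FPKM to 2149 and 1926 FPKM.

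Among the collagens, Col5a1 rose from 0.515 and 0.569 FPKM to 26.9 and 38.4 FPKM, and Col7a1, the anchoring fibril collagen, from 0.213 and 0.257 FPKM to 22.8 and 29.04 FPKM. Col1a1, the main chain of type I collagen, reached 4.86 and 6.97 FPKM from 0.336 and 0.284 FPKM, while Col1a2, its partner chain, stayed under 0.053 FPKM in all 12 libraries. Col4a1, of basement membrane, rose by 1.20 ± 0.057 and Col12a1 by 2.23 ± 0.21. Col6a2 was the chain not called, at 10.5 and 8.99 FPKM and 9.49 and 14.04 FPKM. Its change was 0.49 without replicate 1 of the 24 h KD group. Enzymes that process collagen rose with the chains. Plod2, the lysyl hydroxylase of collagen telopeptides, went from 9.497 and 9.23 FPKM to 129 and 115 FPKM, and Loxl2, a lysyl oxidase, from 11.5 and 11.6 FPKM to 48.1 and 70.9 FPKM. Lox rose by 2.75 ± 0.18 and Bmp1, the procollagen C-proteinase, by 2.59 ± 0.051. Pcolce, the enhancer of that proteinase, fell from 22.2 and 23.6 FPKM to 4.200 and 7.23 FPKM.

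In the plasminogen and metalloproteinase system 11 of 16 tested genes rose and 5 fell. Inhibitors and proteases rose side by side. Timp1 and Timp3, inhibitors of metalloproteinases, rose from 63.2 and 67.5 to 638 and 439.9 FPKM and from 12.9 and 12.9 to 160.1 and 152 FPKM. Adam12, a membrane metalloproteinase that TGF-β is known to induce, rose from 1.67 and 1.795 FPKM to 31.5 and 33.03 FPKM, and Mmp14, which activates Mmp2, from 88.7 and 86.5 FPKM to 209 and 227 FPKM. Plau (urokinase) rose by 1.45 ± 0.15. Mmp13 (collagenase 3) fell from 14.04 and 14.6 FPKM to 0.789 and 1.13 FPKM. Plaur, the urokinase receptor, was called lower by a small amount (-0.26), a call that was lost under 2 of the 3 scalings, without replicate 2 of the 24 h KD group (-0.17) and without replicate 2 of the untreated one (-0.22).

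Actin and contractile genes rose in 15 of 16 tested cases, with a median of 1.49. Zyx (zyxin), a focal adhesion protein, rose from 29.2 and 29.9 FPKM to 159 and 185 FPKM, and Palld (palladin), which bundles actin, from 10.7 and 11.2 FPKM to 72.5 and 101 FPKM. Pdlim7 and Cnn2 (calponin 2) rose by 2.10 ± 0.087 and 1.75 ± 0.064. The smooth muscle genes Acta2 and Tagln rose but stayed low, at 2.39 and 3.31 and at 3.47 and 4.97 FPKM. Lima1 (EPLIN), which links the cadherin complex to actin, was the member that fell, from 59.3 and 57.3 FPKM to 7.91 and 9.81 FPKM. YAP and TEAD genes, which respond to cell tension, showed 12 rises and 3 falls in 17 tested genes, with Ankrd1 rising from 205 and 236 FPKM to 587 and 601 FPKM, Amotl1 by 1.38 ± 0.057 and Amotl2 by 0.55 ± 0.069, and with changes of -0.67 ± 0.098 for Tead4 and -0.42 ± 0.086 for Crim1, both called. In the AP-1 family, 5 of 8 tested genes rose and 2 fell. Junb rose from 95.2 and 99.7 FPKM to 348 and 295 FPKM, Jun from 7.397 and 7.97 FPKM to 24.5 and 23.97 FPKM and Fosl2 by 1.60 ± 0.061. Fosl1 fell from 12.1 and 14.2 FPKM to 5.49 and 3.696 FPKM.

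Epithelial genes fell, though not evenly. Of 15 tested junction genes 10 fell, 4 rose and 1 was not called (median -0.85). Cdh1, the adhesion protein of epithelial junctions, went from 127 and 121 FPKM to 46.6 and 60.1 FPKM, a 2.32-fold fall (limma adjusted p = 7.6e-06). The tight junction protein Ocln (occludin) went from 11.7 and 11.7 FPKM to 5.04 and 4.05 FPKM, and its scaffold Tjp1 (ZO-1) from 56.1 and 56.3 FPKM to 31.5 and 30.05 FPKM. Cgn (cingulin) fell by 1.55 ± 0.089 and the apical polarity gene Crb3 fell by 1.74 ± 0.13. Cldn4, a claudin, moved the other way, from values of 0 and 0.0099 FPKM to 4.76 and 9.78 FPKM. Epcam was also higher, at 1.21 and 1.45 against 0.387 and 0.326 FPKM, low throughout.

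Keratins and desmosome genes had no common direction, with 7 of 14 tested genes higher and 3 lower. Beside the fall of Krt19, Krt7 rose from 6.01 and 6.21 FPKM to 36.6 and 56.3 FPKM. Krt8 and Krt18, the most abundant keratins, were at 3345 and 3561 and at 2714 and 3324 FPKM at 24 h, and their calls were lost under quantile normalization (changes of 0.23 and 0.20). Pkp1 (plakophilin 1) rose from 3.34 and 3.25 FPKM to 63.2 and 59.9 FPKM, and Ppl (periplakin) fell by 2.25 ± 0.15. Dsg2 (desmoglein 2) was not called, at 8.31 and 8.07 and 7.28 and 7.97 FPKM.

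All 11 tested epithelial transcription factors and splicing regulators fell, with a median of -0.81, where 43.3% of all tested genes fell. Hnf4a, a nuclear receptor of gut and liver epithelium, fell from 105 and 98.1 FPKM to 20.7 and 24.4 FPKM, and Klf5, a Krüppel-like factor, from 36.3 and 37.4 FPKM to 8.54 and 7.996 FPKM. Ehf and Elf3, ETS factors of epithelium, fell from 6.74 and 6.04 to 0.1696 and 0.396 FPKM and from 22.05 and 20.4 to 12.2 and 11.2 FPKM. Cdx2, the homeobox factor of gut epithelium, fell by 2.15 ± 0.13. Esrp2, a splicing regulator of epithelial isoforms, fell by 0.36 ± 0.037, from 12.8 and 13.1 FPKM to 9.86 and 9.84 FPKM. Of the surface and polarity genes 7 of 10 tested fell. Lgals4 (galectin 4) fell from 87.3 and 88.7 FPKM to 2.89 and 2.72 FPKM, Vil1 (villin), of the microvillus core, from 25.9 and 26.5 FPKM to 2.82 and 4.702 FPKM, Muc1, a mucin of the apical surface, from 14.9 and 16.5 FPKM to 1.25 and 1.12 FPKM, and Ezr (ezrin), which ties the membrane to actin, from 323 and 314 FPKM to 75.1 and 83.9 FPKM.

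Cell cycle genes fell without exception in the lists used. All 22 DNA replication genes and all 23 mitosis genes were called lower and changed by at least 1, with medians of -1.74 and -2.61, where 9.04% of all tested genes passed that call. Mki67 (Ki-67), a marker of cycling cells, went from 42.99 and 43.9 FPKM to 4.77 and 3.74 FPKM, a 10.2-fold fall. Top2a, the topoisomerase of dividing cells, fell from 99.4 and 99.3 FPKM to 12.3 and 13.5 FPKM, and Cdk1, the kinase that starts mitosis, from 75.7 and 74.8 FPKM to 11.8 and 14.1 FPKM. Every treated library of these genes lay far below the untreated ones. The mitotic kinesins Kif11 and Kif23 fell from 50.1 and 49.4 to 5.37 and 4.75 FPKM and from 64.4 and 62.01 to 6.73 and 5.97 FPKM. Ccnb1 (cyclin B1), partner of Cdk1, fell from 70.2 and 66.9 FPKM to 9.48 and 11.4 FPKM. The checkpoint kinase Bub1 fell by 2.70 ± 0.11, its partner in the checkpoint Mad2l1 fell by 2.63 ± 0.058, and the kinase Aurkb fell by 2.62 ± 0.083. For replication, Mcm5, a subunit of the replicative helicase, fell from 56.7 and 57.7 FPKM to 8.48 and 9.29 FPKM, Pcna, the sliding clamp, from 299 and 310.2 FPKM to 89.8 and 103 FPKM, and Cdc6, which loads the helicase, from 11.01 and 11.6 FPKM to 1.35 and 1.72 FPKM. The smallest fall in these lists was that of Rrm1, a subunit of ribonucleotide reductase, which fell by 1.13 ± 0.084.

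**Figure D3:**
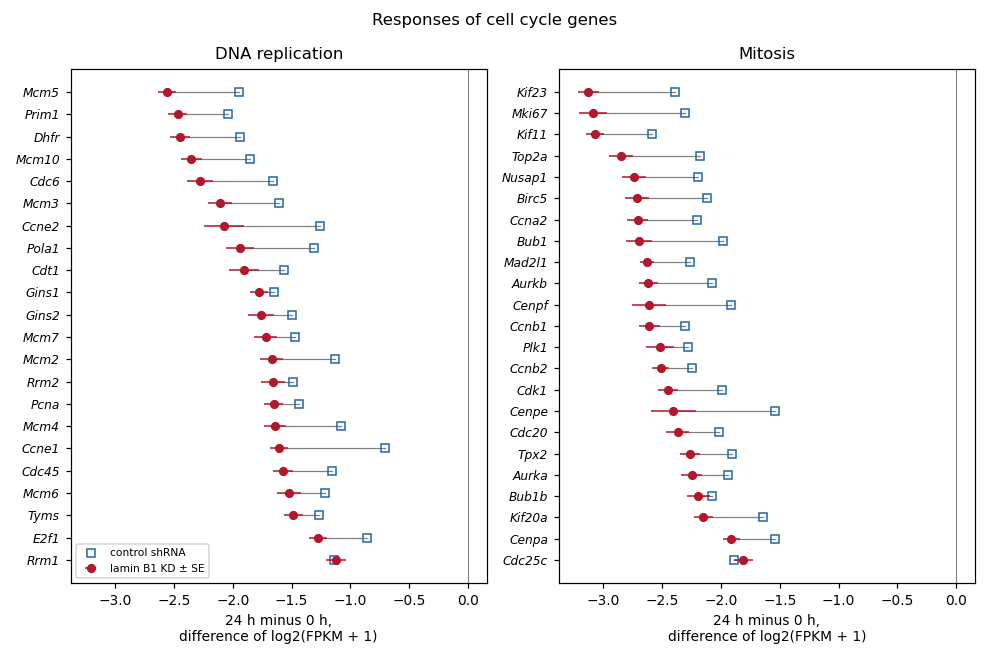
Responses (24 h minus 0 h, difference of log2(FPKM + 1), horizontal axis) of the 22 DNA replication and 23 mitosis genes, with circles for KD cells (bars are the SE), squares for control cells and a line joining them. The KD point lies further left than the control point for 21 replication and 22 mitosis genes, and the exceptions are Rrm1 and Cdc25c.

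The promoters of mitotic genes carry known elements, the CCAAT box bound by NF-Y and the cell cycle homology region with the letters TTTGAA. These sequences are shown because the mitosis genes moved together. RefSeq promoters of build GRCm38.p6 were used, 250 bases up to the start of each gene, for the 22862 symbols with a single entry. These include 6904 of the 11450 tested genes. They also include 417 of the 733 genes at least 1 higher and 661 of the 1035 at least 1 lower. All shares below are of genes with such an entry. CCAAT (on either strand, ATTGG) was found in 15 of the 18 mitosis genes with an entry, 11 of 16 replication genes, 46.0% of the genes at least 1 lower, 31.7% of those at least 1 higher, 38.1% of tested genes and 34.7% of all promoters. TTTGAA (or TTCAAA) was found in 6 of 18 mitosis genes, 2 of 16 replication genes, 15.7% of the genes at least 1 lower, 5.04% of those at least 1 higher, 10.0% of tested genes and 16.7% of all promoters. The E2F sites TTTCCCGC (or GCGGGAAA) and TTTGGCGC (or GCGCCAAA) were in 1 and 3 of 16 replication genes and in 0 of 18 mitosis genes. TTTCCCGC was in 3.78% of the genes at least 1 lower, 1.2% of those at least 1 higher, 2.03% of tested genes and 0.94% of all promoters, and TTTGGCGC in 2.27%, 0.24%, 0.999% and 0.416%. CAGAC (or GTCTG), the Smad element, was in 44.4% of the genes at least 1 higher, 43.1% of those at least 1 lower, 40.3% of tested genes and 42.3% of all promoters. TGACTCA (or TGAGTCA), the AP-1 site, was in 5.52%, 7.11%, 3.32% and 4.47%. These motifs and lists were chosen with the results known, a match is not shown to be a site in use, and no test was run. Of the 6 mitosis promoters that hold both CCAAT and TTTGAA, the 3 with 2 copies of TTTGAA are given 5′ to 3′ on the strand of the gene, ending at its start, with both motifs in capitals. They lie at chr10:69352913-69353162 (minus strand), chr7:135716380-135716629 (minus strand) and chr11:99024190-99024439 (minus strand).
Cdk1: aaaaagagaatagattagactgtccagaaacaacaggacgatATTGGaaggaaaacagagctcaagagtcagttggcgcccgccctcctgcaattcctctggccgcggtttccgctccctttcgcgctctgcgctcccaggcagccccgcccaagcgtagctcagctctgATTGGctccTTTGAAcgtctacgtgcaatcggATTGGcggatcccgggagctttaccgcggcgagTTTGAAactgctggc
Mki67: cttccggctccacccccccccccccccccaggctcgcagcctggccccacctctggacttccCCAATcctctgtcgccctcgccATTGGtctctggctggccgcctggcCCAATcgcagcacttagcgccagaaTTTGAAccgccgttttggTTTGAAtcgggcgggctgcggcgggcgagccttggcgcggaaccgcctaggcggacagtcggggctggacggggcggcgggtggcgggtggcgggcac
Top2a: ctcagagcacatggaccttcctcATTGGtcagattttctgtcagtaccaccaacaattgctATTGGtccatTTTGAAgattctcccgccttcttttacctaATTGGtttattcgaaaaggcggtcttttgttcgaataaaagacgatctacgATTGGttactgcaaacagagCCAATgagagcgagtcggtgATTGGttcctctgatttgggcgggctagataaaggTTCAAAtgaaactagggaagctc

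Metabolic lists moved less than the matrix and cell cycle lists. Of 21 tested cholesterol genes 8 rose, 1 fell and 12 were not called, with a median of 0.13 and no change of 1 or more. Cyp51, the lanosterol demethylase, rose from 19.7 and 20.4 FPKM to 29.9 and 38.3 FPKM. Dhcr7, a late reductase of the pathway, was the member that fell by 0.55 ± 0.075. In glycolysis 4 of 17 tested genes rose and 9 fell. Hk2 (hexokinase 2) rose from 7.18 and 7.73 FPKM to 15.8 and 18.4 FPKM and Pfkp, a phosphofructokinase, by 1.22 ± 0.094, while Ldha (lactate dehydrogenase A) fell from 908 and 913 FPKM to 553 and 528 FPKM. The glucose transporter Slc2a1 was at 28.6 and 30.3 and 31.3 and 29.4 FPKM and was not called. With median centring and with rescaling on genes other than small RNA genes it was called higher, at 0.14 in both. In the ATF4 and serine synthesis list 4 of 18 rose and 9 fell. Psat1 and Phgdh, enzymes of serine synthesis, fell from 242 and 260.3 to 58.8 and 65.7 FPKM and from 275 and 286 to 105 and 115 FPKM. Vegfa, the angiogenic growth factor, rose from 21.02 and 20.9 FPKM to 93.2 and 93.8 FPKM, and Ddit4, an inhibitor of mTORC1, by 1.83 ± 0.099. Of 9 tested interferon genes 1 rose and 5 fell, among them Mx1, an antiviral GTPase, from 2.58 and 2.36 FPKM to 0.0485 and 0.0323 FPKM. Of 10 stress and RNA quality genes 4 were higher and 2 lower, with a change of -1.28 ± 0.11 for Egr1, an immediate early gene.

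Genes of the nuclear lamina had no common direction. Of 14 genes, Lmnb1 included, 5 rose and 6 fell, and the median of -0.037 became 0.038 with quantile normalization, 0.065 with median centring and 0.054 with rescaling. Lbr (lamin B receptor), which ties heterochromatin to the inner membrane, fell from 30.6 and 31.3 FPKM to 8.89 and 9.32 FPKM, and Tmpo (LAP2) from 94.1 and 91.1 FPKM to 34.96 and 37.1 FPKM. Lmnb2, the other B-type lamin, fell from 15.7 and 15.4 FPKM to 10.2 and 10.8 FPKM, and Banf1, which bridges DNA and lamina, fell by 0.72 ± 0.048. Lmna (lamins A and C) was at 327 and 336 FPKM untreated and 319.6 and 315 FPKM at 24 h, with a 95% interval of the log2 change from -0.19 to 0.067. Sun2 and Syne1, which link the lamina to the cytoskeleton, rose by 0.42 ± 0.066 and 0.53 ± 0.10.

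Levels at 24 h were also compared with those at 8 h within KD cells, since a response at 24 h may have been reached early or still be under way. Between 8 and 24 h 3209 genes (28.0%) were higher and 2724 (23.8%) lower at 24 h. All 23 mitosis genes were lower at 24 h than at 8 h, and 15 of 22 replication genes were lower and 1 higher. Mki67 had only reached 30.03 and 27.1 FPKM at 8 h, and Ccnb1 was at 63.7 and 62.9 FPKM then, near its untreated level. Cdc6, in contrast, was at 1.63 and 1.65 FPKM at 8 h and did not differ by test at 24 h, and Ccne1 (cyclin E1) was at 3.46 and 3.797 FPKM at 8 h and higher at 24 h, at 5.14 and 5.42 FPKM. Matrix and actin genes were still higher at 24 h, with 9 of 13 collagen chains, 12 of 15 collagen modification genes and 13 of 16 actin genes above 8 h. Fn1 stood at 84.2 and 73.8 FPKM at 8 h and Zyx at 79.9 and 81.1 FPKM. Other genes were not higher at 24 h. Snai1 at 19.5 and 19.9 FPKM was slightly higher at 8 h and Tgfbr1 at 46.1 and 44.3 FPKM was higher at 8 h. Of the cholesterol genes 13 of 21 were lower at 24 h than at 8 h, Cyp51 being at 66.6 and 66.3 FPKM at 8 h. Krt14, a basal keratin, was at 23.8 and 29.6 FPKM at 8 h and was at 2.84 and 1.99 FPKM at 24 h.

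Parental NMuMG cells, in a table of their own that was normalized separately, gave a response from other libraries. Of 10806 genes tested in both tables, small RNA genes left out, the KD response and the parental response had a Pearson r of 0.901 across genes, which are not independent replicates. Over all 10843 genes tested in both, 2576 were higher in both, 82.5% of the genes higher in KD cells and 71.3% of those higher in parental cells, where 33.3% of these genes were higher in parental cells. In both, 3491 were lower, 73.8% of the KD set and 86.3% of the parental set, where 37.3% were lower in parental cells. The log2 change in parental cells was 3.06 for Fn1, 2.06 for Snai1, -1.50 for Cdh1 and -1.70 for Mki67.

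The control shRNA cells were used to ask where the KD response differs. In control cells 2924 genes were higher and 5169 lower at 24 h. Over the 11336 genes other than small RNA genes the 2 responses had a Pearson r of 0.952 across genes, and over all 11450 tested genes it was 0.816. The test of the difference, KD response minus control response, called 540 of 11450 genes (4.72%), 313 positive (2.73%) and 227 negative (1.98%), with a median size of 0.53, and 2713 genes had an unadjusted p under 0.05. These counts depended on single libraries and on the scaling. A fit of only the 4 groups called 88 genes. Leaving out replicate 1 of the 24 h KD group gave 2709 calls, and leaving out replicate 2 of the untreated control group gave 1417. Leaving out either untreated KD library gave 92 and 110, and leaving out either 24 h control library gave 87 and 120. With a scaling on genes other than small RNA genes, 35.57% of the calls were positive, against 57.96% as reported, and quantile normalization and median centring gave 47.95% and 49.16%. Under all 16 alternatives other than a minimum change 61 of these genes were called, 39 positive and 22 negative. In most of the 540 genes both responses went the same way and differed in size, with 135 that fell further in KD cells, 100 that fell less, 108 that rose further and 48 that rose less. In 30 genes the 2 called responses had opposite directions. KD and control cells differed more at 0 h than at 24 h in 218 of the 540 genes, and more at 24 h in 322.

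**Figure D4:**
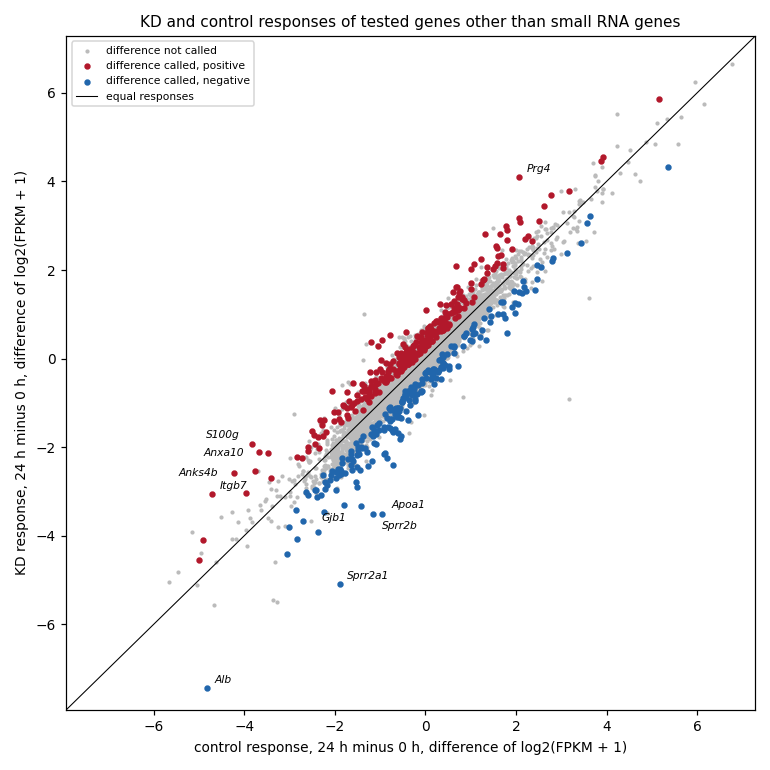
Response of KD cells (vertical axis) against that of control cells (horizontal axis), both 24 h minus 0 h as a difference of log2(FPKM + 1), for 11336 tested genes, with genes called for a positive difference in red, for a negative one in blue, and a line of equal responses. Points follow the line, and the 10 labelled genes are those with the largest called differences by rule.

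Of the genes with the largest positive difference, Prg4 (lubricin), a secreted glycoprotein, rose in both. It went from 0.245 and 0.339 FPKM to 21.6 and 20.8 FPKM in KD cells and from 0.175 and 0.206 FPKM to 3.97 and 4.06 FPKM in control cells, a difference of 2.03 ± 0.10 (limma adjusted p = 5.7e-05). Anks4b, a scaffold of microvilli, fell to 4.79 and 5.31 FPKM in KD cells and to 0.662 and 0.553 FPKM in control cells from 35.2 and 35.7 and 30.04 and 28.4 FPKM untreated. S100g (calbindin D9k), a calcium-binding protein, fell to 8.13 and 6.19 FPKM in KD and 2.41 and 1.54 FPKM in control cells. In these 3 genes the KD and control libraries at 24 h did not overlap. The rule took only genes whose KD and control responses did not overlap, so this follows in part from it. Itgb7 (integrin β7) and Anxa10, an annexin, differed most at 0 h, with Itgb7 at 8.58 and 9.37 FPKM in KD and 27.96 and 40.8 FPKM in control cells and Anxa10 at 3.69 and 3.74 and 12.01 and 16.01 FPKM. Both ended under 0.5 FPKM in every library at 24 h. All 5 were called under those 16 alternatives.

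The genes with the largest negative difference had unequal levels before treatment. Alb stood at 218 and 226 FPKM in untreated KD cells and at 35.96 and 20.9 FPKM in untreated control cells, and it was listed at 0 in both treated control libraries. Sprr2a1 was at 62.6 and 55.7 FPKM in untreated KD and 4.06 and 3.09 FPKM in untreated control cells, and Sprr2b, its near copy, at 13.9 and 11.1 and 1.28 and 1.71 FPKM. Apoa1 (apolipoprotein A-I) was at 10.2 and 10.8 and 0.991 and 0.879 FPKM, and Gjb1 (connexin 32), a gap junction protein, at 9.31 and 8.73 and 2.33 and 1.16 FPKM. At 24 h all of these were under 1 FPKM in KD and control cells alike. Their differences were -2.60, -3.19, -2.34, -2.56 and -1.90, and that of Alb was lost with a pseudocount of 0.1. Apoa1 reached 1 FPKM in the 2 untreated KD libraries and in no other, so it passed the filter through the group where it was high. It was not tested with the filter of 1 FPKM in 4 of 12 libraries and was called under each of the others.

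Some genes of the TGF-β programme differed as well. Ctgf and Cyr61 had smaller rises in KD cells, with differences of -0.83 ± 0.10 and -0.87 ± 0.10 that held under those 16 alternatives. Ctgf was at 148 and 157 FPKM in untreated KD and 75.5 and 71.96 FPKM in untreated control cells. At 24 h it was at 860.3 and 1001 FPKM in KD and 829.7 and 775 FPKM in control cells. Ctgf thus started higher in KD cells and did not end lower than in control cells. The ranges of Cyr61 overlapped at 24 h (222 and 252 against 261 and 249.8 FPKM). Hnf4a fell less in KD cells, to 20.7 and 24.4 FPKM against 5.65 and 5.79 FPKM in control cells, a difference of 1.35 ± 0.12 that held under those 16 alternatives. Krt14 also held, at 1.57, and Ccne1 at -0.90. Cdh1 fell to 46.6 and 60.1 FPKM in KD and 26.8 and 27.6 FPKM in control cells, a difference of 0.81 ± 0.15. Its adjusted p was 0.025 by limma, and it was lost in 6 of the 16 alternatives, 5 of which leave out a library. Snai1, Zeb1 and Fn1 were not called for a difference, with 95% intervals from -0.23 to 0.35, -0.27 to 0.13 and -1.11 to 0.80.

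The cell cycle lists leaned to deeper falls in KD cells. The sign of the difference was negative for 22 of 23 mitosis and 21 of 22 replication genes, with medians of -0.48 and -0.42, and 8 mitosis and 2 replication genes were called, against a background of 1.98% called negative. Members of a list vary together, so these signs are not independent. In the stress and RNA quality list the sign was negative for 9 of 10 genes, with a median of -0.26 and 2 called, and its part in the difference of the cell cycle lists was not tested. Mki67 ended at 4.77 and 3.74 FPKM in KD and 8.38 and 8.998 FPKM in control cells, and Kif23 at 6.73 and 5.97 and 11.4 and 10.6 FPKM. The KD and control libraries at 24 h did not overlap in either gene, and overlap was not counted over all tested genes. The differences of Mki67 and Kif23, the largest called in the mitosis list, were -0.78 ± 0.17 and -0.74 ± 0.13. No called mitosis gene kept its call under all 16 alternatives, and neither did Mcm5 (-0.61), whereas Ccne1 did. For cholesterol genes the sign was positive in 21 of 21 tested genes, with a median of 0.37, and 5 were called, against 2.73% of all genes called positive. Cyp51, at 29.9 and 38.3 FPKM in KD and 28.9 and 30.5 FPKM in control cells at 24 h, started lower in KD cells, at 19.7 and 20.4 against 27.6 and 27.3 FPKM. None of the called cholesterol genes, Cyp51, Mvd, Sqle and Sc5d among them, kept its call under all 16 alternatives.

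**Figure D5:**
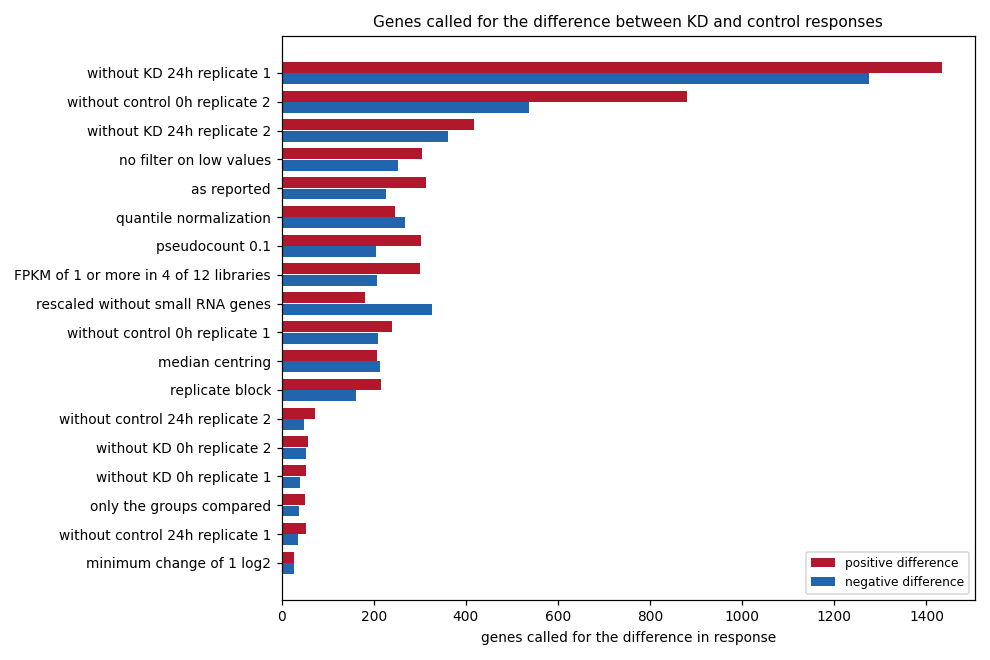
Number of genes called for a positive (red) or negative (blue) difference between the KD and control responses (horizontal axis, from 0) as reported and under each alternative. The counts run from 26 and 27 genes with a minimum change of 1 to 1434 and 1275 without replicate 1 of the 24 h KD group.

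The genes of the KD response were last set against peaks of lamin B1 ChIP-seq and of ATAC-seq, which marks open chromatin. These come from parental cells, not KD cells, with 1 library per time point, so they have no error and no test was run. Of the tested genes 10473 (91.5%) had a single locus in the annotation of the files' build, mm9. A lamin B1 peak between 2500 bases upstream and the end of the gene was present at 24 h in 44.2% of these genes, in 43.7% of those at least 1 higher in KD cells and in 34.9% of those at least 1 lower. At 0 h the shares were 33.6%, 32.1% and 28.4%. An ATAC peak within 500 bases of the start was present at 0 h in 56.4% of all, 27.5% of the higher and 49.4% of the lower genes, and at 24 h in 84.0%, 64.4% and 72.9%. The median level in untreated KD cells also differed between these sets. It was 13.2 FPKM for all, 3.67 FPKM for the higher and 14.7 FPKM for the lower genes, and its part in these shares was not tested. The peak lists also differ in length. They hold 9782 ATAC peaks at 0 h and 33811 at 24 h, and 4645 and 7083 lamin B1 peaks. The part of list length in the change of shares from 0 to 24 h was not tested. Snai1 (chr2:167363695-167368314, plus strand) had a lamin B1 peak at 0 and 24 h, Cdh1 (chr8:109127251-109194146, plus strand) and Il11 (chr7:4724669-4734460, minus strand) at 24 h and not at 0 or 8 h, and Hnf4a (chr2:163332544-163398646, plus strand) at none of the 3 times.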

How the data were processed

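RNA-seq was measured in 12 libraries of shRNA cells and 6 of parental cells. The deposited tables hold FPKM values, which the authors made per library. The submitters' processing notes name Bowtie, TopHat, Cufflinks and mm9, with no version or role. The tables have no header, and columns were assigned in the order given by the table's name. No column was left without a sample (0 columns). The deposited peak lists, called by the authors, give a score per peak on mm9. The parental columns are not numbered by replicate. Hi-C was not used here.

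Values were analysed as log2(FPKM + 1) where 2 or more of the 12 libraries reached 1 FPKM, with limma 3.58.1 (lmFit, contrasts.fit, eBayes with trend) in R 4.3.3, all 6 groups in one fit, and Benjamini-Hochberg adjustment over 11450 genes. Parental libraries were fitted on their own. Intervals are at the 95% level. P-values measure the spread between the 2 libraries of a group, pooled per gene over all groups of a fit and moderated across genes. A gene thus has the same SE for the KD and the control response. A wider spread in the 24 h KD group is averaged with that of the others. The procedure was tested on simulated data.

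The lists, the promoter motifs and the comparison were chosen with earlier results of these data known. Named are the 10 largest rises and 10 largest falls among called genes with at least 5 FPKM and no overlap between groups, the 5 largest differences in response in each direction, both without small RNA genes, and members of 30 gene lists. Some genes that this rule picked are not reported here. Alternatives were a pseudocount of 0.1, other filters, 3 scalings, a minimum change, a block on replicate number, fitting the compared groups alone, leaving out each library, and for peaks a window of 500 bases and peaks at or above the median score of their list.

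Same-numbered libraries were checked for pairing. The correlation of replicate deviations passed 0.1 in 2 of 15 pairs of groups, and the lowest was -0.135. The 2 pairs were KD at 0 and 24 h (0.184) and control and KD at 24 h (0.368), both of which are compared here. These values cannot tell whether same-numbered libraries share a batch. The main fit has no block, and a block on replicate number is among the alternatives.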

Additional observations from a re-analysis of the deposited data

Results flagged for a closer look

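The response to 24 h of TGF-β differed between KD and control cells in 47 of the 172 genes whose values were followed, by the limma test of the difference itself, against 4.72% of all genes tested. The 172 are the genes named by rule and those discussed here, picked with results known. Among them are 10 genes chosen for the largest called differences and all 8 mitosis genes called for the difference. The count follows in part from that choice and does not estimate how common differences are. Values are the KD response minus the control response on the log2 scale. A positive difference that held under all 16 alternatives other than a minimum change was found for Prg4 (2.03), S100g (1.89), Itgb7 (1.66), Anks4b (1.64), Krt14 (1.57), Anxa10 (1.56) and Hnf4a (1.35). A negative difference that held was found for Sprr2a1 (-3.19), Sprr2b (-2.34), Gjb1 (-1.90), Ccne1 (-0.90), Cyr61 (-0.87) and Ctgf (-0.83). Sprr2a1, Sprr2b, Gjb1, Itgb7 and Anxa10 were under 1 FPKM in every KD and control library at 24 h, as were Alb and Apoa1 below. Their differences rest mainly on unequal levels at 0 h. Ctgf was also higher in KD than in control cells at 0 h and not lower at 24 h, when the ranges of Cyr61 overlapped.

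The other differences were lost under at least 1 of these alternatives, except that of Apoa1, which was not tested under one filter and was called under each of the others. They were positive for S100a4 (0.92), Cdh1 (0.81), Dsg2 (0.77), Ass1 (0.70), Vcan (0.66), Cyp51 (0.62), Snai3 (0.60), Mvd (0.56), Spp1 (0.56), Lgals4 (0.45), Sqle (0.36) and Sc5d (0.29). They were negative for Alb (-2.60), Apoa1 (-2.56), Egr1 (-1.12), Mmp13 (-0.997), Mki67 (-0.78), Kif23 (-0.74), Bub1 (-0.72), Top2a (-0.67), Mcm5 (-0.61), Crim1 (-0.57), Aurkb (-0.54), Myc (-0.54), Nt5e (-0.51), Kif20a (-0.51), Amotl2 (-0.50), Kif11 (-0.48), Plaur (-0.45), Cnn2 (-0.41), Mad2l1 (-0.37), Vegfa (-0.37), Mx1 (-0.36) and Slc2a1 (-0.34). Beside these values stands the spread of replicates in the 24 h KD group, where 40 genes other than small RNA genes differed by more than 1 on the log2 scale.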

How the results depend on the processing

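No call among the 172 genes followed changed direction under the alternatives, while the median of the lamina list changed sign with the scaling. Other genes were checked only for whether their call and direction held. The KD response gave 3277 genes higher and 4959 lower, and leaving out each of the 4 libraries in turn gave 2843 to 3360 higher and 4287 to 5012 lower. A minimum change of 1 gave 733 higher and 1035 lower. The share of calls that were higher was 39.8% as reported and 50.14%, 50.73% and 49.22% under quantile normalization, median centring and rescaling. The difference in response was far less stable than the response, at 313 positive and 227 negative genes. Median centring gave 206 positive, rescaling without small RNA genes 180 positive, a fit of only the groups compared 51 positive and 37 negative, and a minimum change of 1 gave 26 and 27. Leaving out each of the 8 libraries gave 52 to 1434 positive and 35 to 1275 negative genes. The largest counts came without replicate 1 of the 24 h KD group. A group left with 1 library is assumed to vary like the others.

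The replicate block, with the replicate number as a factor, gave 3256 genes higher and 4935 lower for the KD response, and 215 positive and 162 negative for the difference. Of the 172 genes followed, it changed no call of the KD response and took away 11 calls of the difference. In the labels these libraries share only a number. Whether the lost calls go with a shared batch was not tested.

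The share of genes with a peak fell when only peaks at or above their list's median score were kept, to 36%, 13.8% and 32.6% (all, higher and lower genes) for ATAC at 0 h, 70.3%, 45.3% and 57.3% for ATAC at 24 h, 19.2%, 19.4% and 16.2% for lamin B1 at 0 h and 26.3%, 27.6% and 19.7% at 24 h. Lamin B1 peaks within 500 bases of the start gave 27%, 25.4% and 22.7% at 0 h and 37.6%, 36.2% and 29.8% at 24 h. The lamin B1 shares of the higher and of all genes thus changed order with the score limit. Depth is unknown in all files, and with 2 libraries per group the size of small differences between the responses is uncertain.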
